A study of Mus musculus with 34 samples.

Results

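Genes of the mitochondrial respiratory chain were followed in the mouse cornea from E14.5 (embryonic day 14.5) to 2 years of age. Members were the genes whose only annotated symbol began with Ndufa, Ndufb, Ndufc, Ndufs, Ndufv, Sdha, Sdhb, Sdhc, Sdhd, Uqcr, Cox4i, Cox5, Cox6, Cox7 or Cox8. The rule found 76 of the 19938 gene symbols of the array, on 89 probe sets, of which the one with the highest mean over the whole corneas stood for its gene. The 76 comprise 36 subunits named for complex I, 4 of complex II, 8 of complex III, 17 of complex IV and 11 assembly factors whose names begin with Ndufaf or Sdhaf. Of these, 75 passed the filter on low signal (above the array median on at least 2 whole-cornea arrays), among 12998 genes tested. The member that did not pass was Cox7b2, the testis form of a cytochrome c oxidase subunit, whose intensity in whole cornea ranged from 52.6 to 167. Probe sets annotated with several symbols, among them those of Ndufb4 and Cox7c, fell outside the rule.

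The corneas came from wild-type CB6 mice. Whole cornea was measured on 32 arrays, with 3 per age up to 2 months (E14.5, E15.5 and E17.5 before birth; postnatal days 3, 7, 14 and 28, written P3 to P28; and 2 months) and 2 per age at 6 months, 1 year, 18 months and 2 years. A single array held epithelium of P28, separated with dispase, and another held stroma of P7, isolated by laser capture. Nothing in the labels states that the arrays of an age stem from separate animals, so the p-values describe the spread among these samples alone, which may be technical, and precision is limited by the few arrays per age.

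The respiratory chain passes electrons from NADH and succinate to oxygen and pumps protons across the inner mitochondrial membrane, and ATP synthase uses the resulting gradient. Complex I oxidises NADH, complex II (succinate dehydrogenase, also an enzyme of the tricarboxylic acid cycle) oxidises succinate, complex III passes electrons to cytochrome c, and complex IV (cytochrome c oxidase) passes them to oxygen. Several complex IV subunits have a common form and a form known from muscle, testis or lung. In the cornea the endothelial pump that keeps the tissue clear depends on ATP, and the epithelium is known for its use of glycolysis.

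Several arrays read high for marker genes of tissues other than the cornea, and the E14.5 arrays differed from all later ones. At E14.5 the 7 corneal epithelial markers summed to 3401 to 6145 and the 8 stromal markers to 6523 to 11340, against 21690 to 32970 and 39400 to 45580 at E15.5. The stromal markers include Aldh1a1, which read 2151 on the epithelium array (P28) and 994 on the stroma array (P7). On the whole-cornea arrays it read 1357, 2854 and 3773 at E14.5, 1244 to 1518 at P7 and 2702 to 3758 at P28. The sums of the stromal markers are therefore only a rough gauge of stroma. Krt12, the keratin that defines corneal epithelium, stood at 55.6, 62.8 and 48.2 at E14.5 and at 1750 or more on each later whole-cornea array. A tissue's genes counted as high on an array when their median lay at least 2 log2 units above its median over the 32 arrays. By this measure the 15 skeletal muscle genes were high on E17.5 replicates 1 and 3, and the 10 retina genes on 6 months replicate 1. The 17 lens genes were high on 5 arrays, namely replicates 2 and 3 of E14.5, replicate 2 of P14, replicate 1 of 2 months and replicate 2 of 6 months. The 4 blood genes were high on all 3 arrays of E14.5. They were Hba-x, Hbb-y, Hbb-bh1 and Alas2, the first 3 of them embryonic globin genes, so their sums do not measure blood at later ages. The 7 pigment cell genes were high on 4 arrays, replicates 2 and 3 of E17.5 and of P3. In addition, 8 probe sets without a gene name read at least 1501 on all 18 arrays up to P14 and at most 12.8 on all 14 arrays from P28. The labels name no batch, and the 2 array sets spoken of below, up to P14 and from P28, rest on these probe sets alone. What sets them apart is not known. Between P14 and P28 age and array set cannot be told apart. In whole tissue, fewer cells of a type and less RNA per cell cannot be told apart.

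The promoters of members were compared by motif, since shared promoter elements are a known feature of this gene group. Of the 76 members, 62 had an entry in the RefSeq promoter table of build GRCm38.p6 (250 bases before to 50 after the start of the gene), with 64 promoters. A core form of the site of NRF1 (nuclear respiratory factor 1), GCGCA followed by any base and GCGC, was found on either strand in 15 of the 64, or 23.4%, against 4.6% of all 32851 promoters in the table. CCGGAAG, the core of ETS-family sites such as that of GABPA (nuclear respiratory factor 2), was also in 15 of 64, or 23.4%, against 8.86% of all, and AAGATGGC, the core of a YY1 site, in 7 of 64, or 10.9%, against 2.75%; both strands were searched for each. At least 1 of the 3 motifs stood in 33 member promoters, and NRF1 and ETS letters together in 3. The 5 promoters printed here belong to Sdha and Sdhb of complex II, Ndufs6, Ndufaf5 and Cox6b2. In the comparisons between ages below, Sdha was called at P3, P7 and P28, and Sdhb only at P28, where the array sets meet. Ndufs6 has an NRF1 and a YY1 match, and Ndufaf5 is an assembly factor that was lower from E15.5. Cox6b2 was lowest at 2 years and holds none of the 3 motifs. In this order the promoters lie at chr13:74350191-74350490 (- strand), chr4:140961021-140961320 (+ strand), chr13:73328433-73328732 (- strand), chr2:140170396-140170695 (+ strand) and chr7:4753045-4753344 (- strand). Each is written 5′ to 3′ on the gene's strand, with the motif letters in capitals.
Sdha: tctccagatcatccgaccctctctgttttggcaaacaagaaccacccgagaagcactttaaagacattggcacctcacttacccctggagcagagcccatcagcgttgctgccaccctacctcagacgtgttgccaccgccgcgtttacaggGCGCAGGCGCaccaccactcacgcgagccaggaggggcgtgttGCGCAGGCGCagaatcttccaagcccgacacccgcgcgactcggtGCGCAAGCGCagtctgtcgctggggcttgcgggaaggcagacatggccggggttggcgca
Sdhb: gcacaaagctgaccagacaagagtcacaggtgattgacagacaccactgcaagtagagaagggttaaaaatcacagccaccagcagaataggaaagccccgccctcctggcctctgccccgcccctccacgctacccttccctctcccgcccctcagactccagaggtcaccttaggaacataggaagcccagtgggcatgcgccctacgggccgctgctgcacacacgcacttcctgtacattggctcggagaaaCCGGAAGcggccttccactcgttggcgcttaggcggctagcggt
Ndufs6: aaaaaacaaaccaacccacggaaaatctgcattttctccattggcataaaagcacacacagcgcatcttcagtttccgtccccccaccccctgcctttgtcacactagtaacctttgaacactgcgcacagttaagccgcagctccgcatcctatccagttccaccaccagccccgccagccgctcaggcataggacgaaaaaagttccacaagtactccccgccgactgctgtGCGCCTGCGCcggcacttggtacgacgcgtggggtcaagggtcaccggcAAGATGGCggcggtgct
Ndufaf5: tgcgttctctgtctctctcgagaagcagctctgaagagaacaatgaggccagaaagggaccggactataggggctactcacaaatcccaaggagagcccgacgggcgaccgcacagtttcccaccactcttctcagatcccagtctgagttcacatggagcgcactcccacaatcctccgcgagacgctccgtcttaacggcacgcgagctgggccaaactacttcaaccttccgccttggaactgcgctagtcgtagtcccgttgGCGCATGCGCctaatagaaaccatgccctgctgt
Cox6b2: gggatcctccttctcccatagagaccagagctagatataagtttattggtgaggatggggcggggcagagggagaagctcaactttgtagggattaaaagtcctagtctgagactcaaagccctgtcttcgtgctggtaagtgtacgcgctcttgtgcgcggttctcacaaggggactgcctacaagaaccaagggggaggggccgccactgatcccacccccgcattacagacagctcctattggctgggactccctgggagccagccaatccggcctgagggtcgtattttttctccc
The Sdha promoter holds 3 NRF1 matches, the Sdhb promoter 1 ETS match, Ndufs6 1 NRF1 and 1 YY1 match and Ndufaf5 1 NRF1 match. A match describes the letters of the window only and shows no binding.

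The members as a group moved little with age. Log2 values were taken after adding 16 to the intensity, and a gene was called at a Benjamini-Hochberg adjusted p under 0.05 in limma over the 12998 genes. Over the 12 ages the moderated F-test called 61 of 75 members, or 81.3%, against 79.9% of all genes tested. With a highest minus lowest age mean of at least 1 log2 unit as a further condition, 15 of 75 members were called, or 20%, against 40.6% of all genes. The median range of the age means was 0.74 log2 units for members and 0.87 for all genes. The 14 members not called were Cox6a1, Cox6c, Cox8a, Ndufa1, Ndufaf4, Ndufaf6, Ndufb5, Ndufb6, Ndufb7, Ndufc1, Ndufs1, Ndufs7, Ndufv3 and Uqcrh. When only the 6 ages to P14 were fitted, 21 members were called, and 11 when only the 6 ages from P28 were. Beside a difference, an adjusted p given as "up to" a value without certain arrays is the highest one reached when these arrays were left out one at a time, each of which ended the call. The comparisons of E15.5, E17.5 and P14 share the E15.5 arrays, and those of P14 and P28 the P14 arrays.

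Within this narrow range the group's level on the deposited scale was lowest at P3 and higher from P28 to 6 months, but the order of the ages depended on the scaling. After quantile normalization the median stood at 0.025 at P3 and −0.060 at P28, and was highest at E14.5 (0.18) and lowest at 2 years (−0.16). After centring each array on its median, P3 was lowest (−0.18) and 6 months highest (0.20), with P28 at 0.092. The rise at P28 also coincides with the change of array set. The values that follow are on the deposited scale. For the 75 members the median deviation from their own 32-array means started at 0.043 (E14.5), was −0.13 at E15.5 and −0.066 at E17.5, and reached −0.23 at P3. It was 0.0076 at P7, −0.033 at P14, 0.18 at P28, 0.081 at 2 months and 0.23 at 6 months, and then 0.031, 0.0090 and −0.053 at 1 year, 18 months and 2 years. All genes tested stayed between −0.072 and 0.067 over the same ages. The medians of the single arrays at P3 (−0.24, −0.33 and −0.12) overlapped with those at E15.5 (−0.14, −0.18 and −0.074) and E17.5 (0.029, −0.18 and −0.051). The arrays of 2 months read 0.28, −0.15 and 0.12, and the highest, replicate 1, is the one rich in lens genes. P3 was the age with the lowest mean for 34 of 75 members (for 12 after quantile normalization), and the highest mean fell on 6 months for 27, on P28 for 20 and on E14.5 for 12. Both 6 months arrays were rich in lens or retina genes, whose part in the members' level was not tested.

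**Figure D1:**
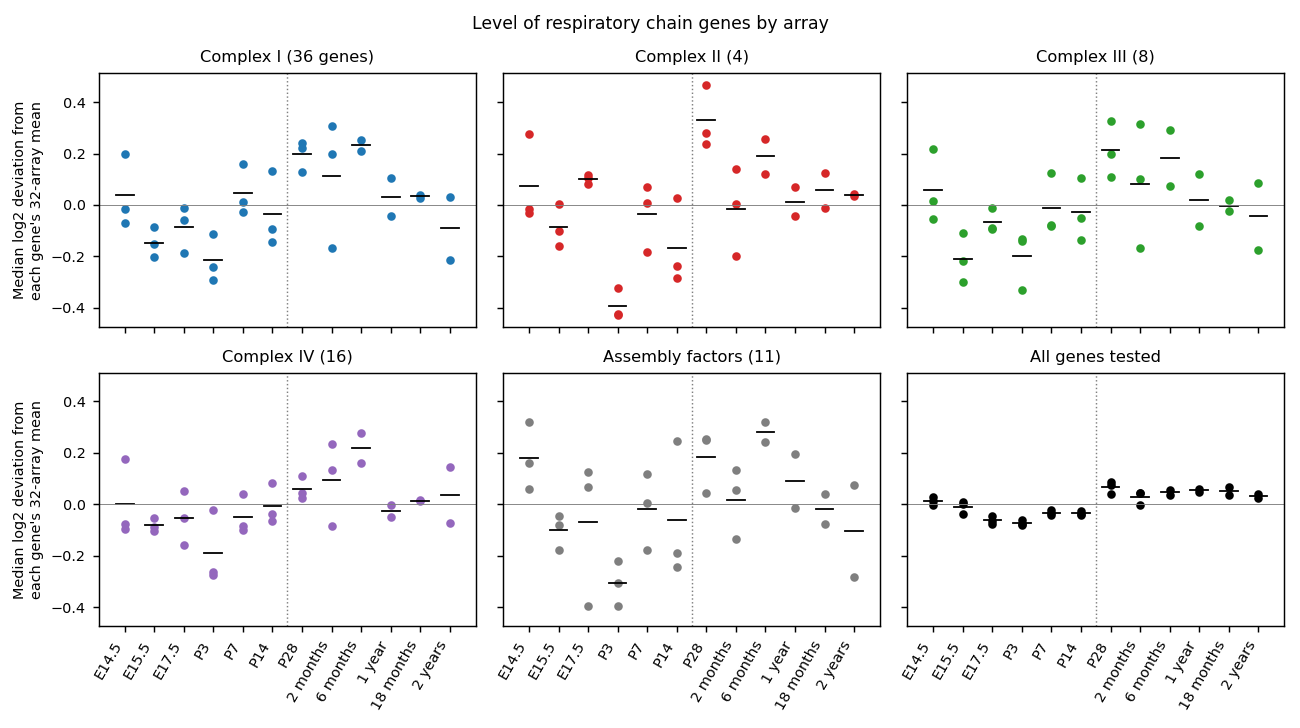
Median log2 deviation of the genes of each complex from their own 32-array means, 1 point per whole-cornea array, with the mean of an age as a bar, by age; the last panel shows all genes tested and the dotted line separates the 2 sets of arrays. The P3 arrays of complex II sit between −0.43 and −0.32 and its P28 arrays between 0.24 and 0.47.

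**Figure D2:**
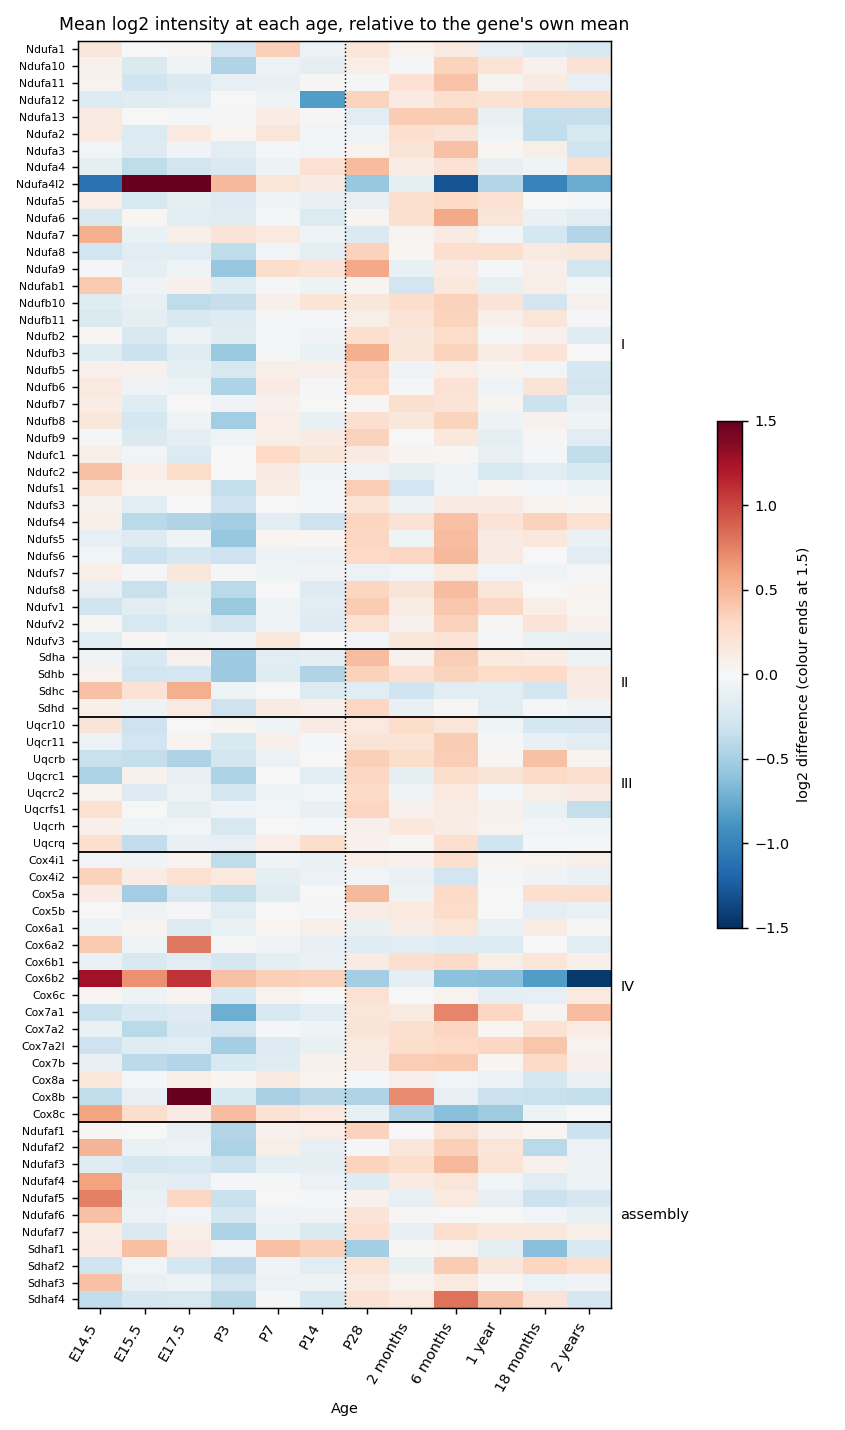
Mean log2 intensity of each of the 75 members at each of the 12 ages, as the difference from the gene's own mean over ages, in order of complex (I to IV, then assembly factors); red is higher and blue lower. The strong colours belong to single genes such as Ndufa4l2, Cox8b and Cox6b2, and the P3 column is pale blue for most genes on this deposited scale.

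Ndufa4l2 had the largest range of the 75 members, 4.16 log2 units between E15.5 and 6 months (adjusted p = 3.75e-10 in limma's F-test). It is a relative of Ndufa4, known as a target of hypoxia-inducible factor that lowers complex I activity, and Ndufa4 itself carries a complex I name but is now counted with complex IV. At E14.5 the intensity of Ndufa4l2 was 106, 63.5 and 131, at E15.5 1039, 2066 and 2477 and at E17.5 716, 960.0 and 648. It was thus far higher on every E15.5 array than on any E14.5 array, and still above all of them at E17.5. It read 245, 352 and 397 at P3, 387, 141 and 319 at P7 and 288, 207 and 257 at P14. From P28 on it lay between 67.1 and 234, and these later arrays overlapped with those of E14.5. The difference of E15.5 minus E14.5 was 3.97, SE 0.30, adjusted p = 4.63e-10 in limma. From E17.5 to P3 it fell by 1.19 (SE 0.30, adjusted p = 0.0127, and 0.0631 without P3 replicate 1), and P14 minus E15.5 was −2.74, SE 0.30, adjusted p = 6.85e-07. At 2 months (198, 181 and 234) it stood above E14.5 (0.96, SE 0.30, adjusted p = 0.0113, and up to 0.0834 without E14.5 replicate 2). This comparison spans both array sets, and no value of either age exceeded the highest whole-cornea array median, 240.6. Without the lens-rich arrays, which leaves 1 array at E14.5, the difference was 0.87.

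Ndufa4 had no such peak. It read 4886, 4761 and 5519 at E14.5, 4774, 4085 and 3933 at E15.5, 7146, 5962 and 6395 at P14 and 8059, 8557 and 6651 at P28. All P14 arrays were above all E15.5 arrays (0.61, SE 0.16, adjusted p = 0.00958 in limma), and E15.5 minus E14.5, of the opposite sign to Ndufa4l2, did not pass the test (−0.25, SE 0.16, adjusted p = 0.236).

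**Figure D3:**
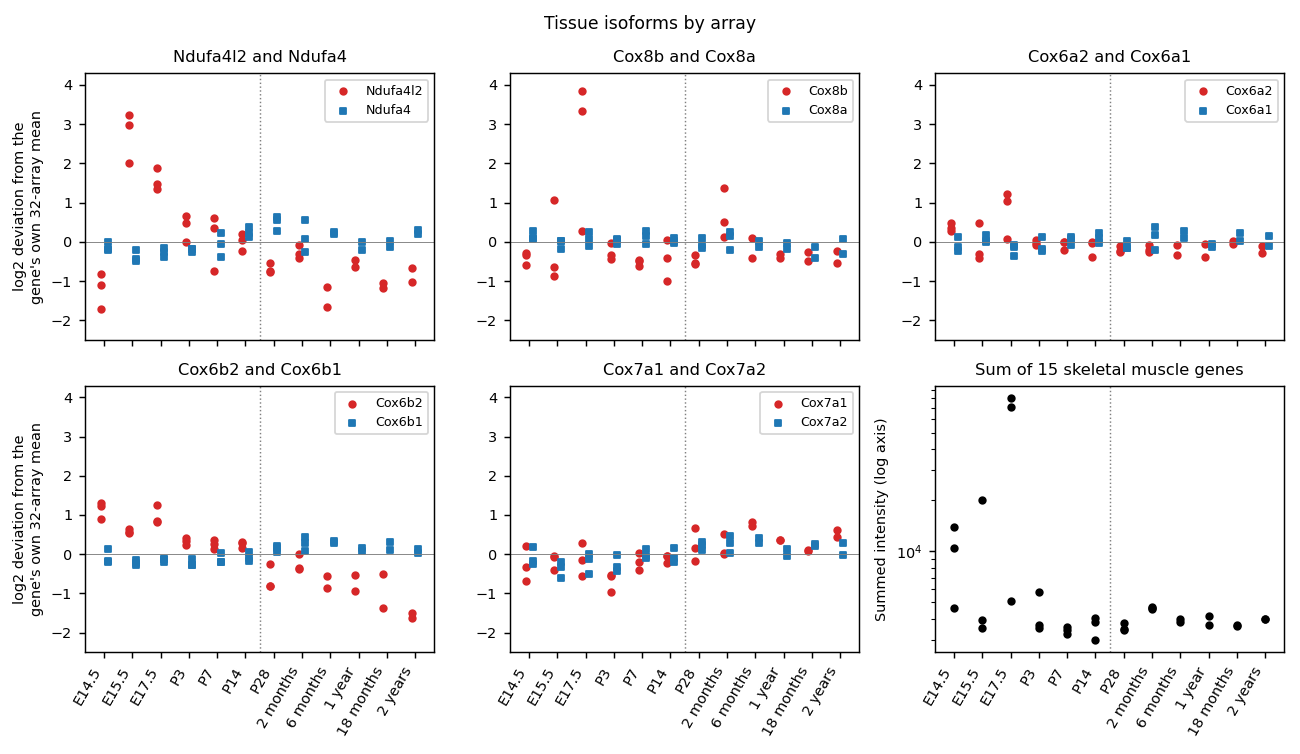
Log2 deviation from the gene's own 32-array mean for 5 tissue isoforms (red circles) and their common partners (blue squares), 1 point per whole-cornea array by age, and in the last panel the summed intensity of 15 skeletal muscle genes on a log axis. Ndufa4l2 peaks at E15.5, Cox8b is high on the 2 E17.5 arrays that carry muscle genes, and Cox6b2 is highest at E14.5 and lowest at 2 years.

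Cox6b2, known as the testis form of a complex IV subunit that joins the dimer, had its highest age mean at E14.5 and its lowest at 2 years (range 2.71, adjusted p = 1.95e-10 in limma's F-test). It read 942, 897 and 713 at E14.5, 587, 556 and 546 at E15.5, and 668, 683 and 912 at E17.5. From P3 to P14 all 9 arrays lay between 412 and 499, below every prenatal array. At P28, past the change of array set, it was 314, 206 and 204, below every P14 array (414, 464 and 455). It then read 376, 288 and 283 at 2 months, 247 and 196 at 6 months, 187 and 255 at 1 year, 258 and 134 at 18 months, and 121 and 111 at 2 years. The arrays of 2 years were the lowest of all 32. Whole-cornea array medians ran from 188.2 to 240.6, so several values from P28 on lay at or below them. At 2 months it was lower than at E14.5, without overlap (−1.39, SE 0.19, adjusted p = 1.47e-06). The stromal markers summed to 6523 to 11340 at E14.5, 30560 to 41040 at P14, 19360 to 23060 at P28 and 5561 to 13920 at 2 years. Aldh1a1, which is among these markers, ran the other way from P14 (1348 to 1581) to P28 (2702 to 3758). The part of the stroma in the fall was not tested. The common partner Cox6b1 lay between 6229.6 and 8323 up to P14 and between 7801 and 10238 from P28, and was higher at 2 months than at E14.5 (0.35, SE 0.11, adjusted p = 0.00989, and up to 0.0717 without E14.5 replicates 1 and 2 or 2 months replicate 1). After quantile normalization that difference of Cox6b1 was 0.00040 (adjusted p = 0.997).

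Cox8b and Cox6a2 are the forms of complex IV subunits known from heart and skeletal muscle (Cox8b also from brown fat). At E15.5 and E17.5 both were high on the arrays where muscle genes were high. At E14.5 the muscle genes summed to 10420, 14000 and 4609, and Cox8b read 236 to 298 and Cox6a2 317 to 369. Cox8b read 779, 229 and 193 at E15.5 and 5524, 444 and 3842 at E17.5. The high arrays at E17.5 were replicates 1 and 3, on which the muscle genes summed to 80660 and 71010 against 5120 on replicate 2, and the high array at E15.5 was replicate 1, with 19990 against 3532 and 3952. The E17.5 minus E15.5 difference of Cox8b was 2.64, SE 0.57, adjusted p = 0.0241, and up to 0.216 without E15.5 replicates 2 and 3 or E17.5 replicates 1 and 3, in limma. It was 0.42 (adjusted p = 0.701) without the 2 arrays rich in muscle genes. At P3 it read 287, 268 and 357 and was lower than at E17.5 (−2.75, SE 0.57, adjusted p = 0.00368). Cox6a2 read 364, 204 and 191 at E15.5 and 625, 270.2 and 545 at E17.5, with the same arrays high, and did not pass the test (0.86, SE 0.22, adjusted p = 0.0531). It was lower at P3, at 250.2, 265 and 241 (−0.81, SE 0.22, adjusted p = 0.0177, and up to 0.104 without E17.5 replicates 1 and 3 or P3 replicate 3). The common partners Cox8a and Cox6a1 were not called over the 12 ages.

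Cox8b was also high on the arrays of 2 months, which did not count as rich in muscle genes; these values were picked out after they were seen. At 2 months it read 401, 528 and 978, each above the 11 other arrays from P28 on, which lay between 241 and 393. The muscle genes summed to 4567, 4598 and 4682 there, above the 11 other arrays from P28 (3456 to 4173) and within the range of all other ages. Of the 5 brown fat markers, 1 lay above the array median on each array of 2 months. They summed to 676 to 794, against 529 to 754 on the other arrays from P28 and 468 to 815 at all other ages. Ucp1, the defining gene of brown fat, stood at 91.8, 88.6 and 72.3, within its range at the other ages (57.1 to 127). Cidea, a lipid droplet gene, read 111, 67.7 and 49.8, with replicate 1 above all other ages (30.4 to 75.0). Plin1, another lipid droplet gene, read 371, 386 and 329, with replicate 2 above all other ages (at most 379). Elovl3, a fatty acid elongase, read 110.4, 118 and 131, with replicates 2 and 3 above the other arrays from P28 (at most 112). The part of muscle or brown fat RNA in these Cox8b values was not tested. The difference of 2 months minus E14.5 did not pass the test (1.08, SE 0.57, adjusted p = 0.126).

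The other tissue isoforms described were Cox8c, Cox7a1 and Cox4i2. Cox8c, the testis form of the subunit whose common form is Cox8a, read 532, 445 and 376 at E14.5 and 211, 292 and 147 at 2 months, without overlap, and was lower at 2 months (−1.04, SE 0.19, adjusted p = 7.08e-05 in limma). Cox7a1, the heart and muscle form next to the common Cox7a2, had its lowest age mean at P3 (182, 178 and 129.9) and its highest at 6 months (456 and 490.0; range 1.46, adjusted p = 0.000782). Its values at E17.5 were 328, 179 and 241, with the muscle-rich replicates 1 and 3 the higher ones. Whole-cornea array medians ran from 188.2 to 240.6. Cox8c at 2 months lay above that range only on the array that read 292, and Cox7a1 at P3 lay below it. Cox4i2, the form of subunit 4 known from lung, lay between 205 and 447 in whole cornea and was lower at 2 months than at E14.5 (−0.45, SE 0.14, adjusted p = 0.0106). Of the common partners, Cox4i1, Cox7a2 and Cox7b were called over the 12 ages, with ranges of 0.63, 0.72 and 0.84 log2 units.

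Between E14.5 and E15.5 more members fell than rose. The test called 18 of 75 members against 36.4% of all genes: 2 higher (21.8% of all genes) and 16 lower (14.6% of all genes, 21.3% of members). The median difference was −0.19 for members and 0.0096 for all genes, and 58 of 75 members had a negative sign. Called with a change of at least 1 log2 unit was 1 member, against 10.4% of all genes. Those lower were 7 of 36 complex I genes, 0 of 4 of complex II, 2 of 8 of complex III, 2 of 16 of complex IV and 5 of 11 assembly factors. Besides Ndufa4l2 the member that rose was Uqcrc1, a core subunit of complex III, which read 662, 724 and 604 at E14.5 and 819, 937 and 1196 at E15.5 without overlap (0.54, SE 0.17, adjusted p = 0.0147, and up to 0.113 without E14.5 replicate 3 or E15.5 replicate 3, in limma; 0.39 and adjusted p = 0.0735 after quantile normalization).

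Ndufaf5, which modifies a core complex I subunit during assembly, had the largest fall of the members. It read 876, 933 and 1132 at E14.5 and 591, 501 and 513 at E15.5 (−0.85, SE 0.13, adjusted p = 2.8e-05). Ndufaf4, another complex I assembly factor, read 818, 1094 and 1544 at E14.5 and 659.8, 666 and 649 at E15.5 (−0.75, SE 0.22, adjusted p = 0.0108, and up to 0.0908 without E14.5 replicate 3). Neither overlapped between the ages, and in both replicate 3 of E14.5 was the highest array. Cox5a, a subunit of complex IV, read 2080.1, 2129.9 and 3394 and then 1634, 1548 and 1547 (−0.64, SE 0.21, adjusted p = 0.0219, and up to 0.157 without E14.5 replicate 3 or E15.5 replicates 2 and 3). Ndufa7, a complex I accessory subunit, read 967, 1244 and 1473 and then 762, 729 and 842 (−0.63, SE 0.14, adjusted p = 0.000851). Uqcrq, a small subunit of complex III, read 1429, 1654 and 1864 and then 1117, 1047 and 1047 (−0.61, SE 0.14, adjusted p = 0.00165). For each of these 3 genes every E15.5 array lay below every E14.5 array. So it did for Ndufaf2, an assembly factor of complex I, at 1825, 1759 and 2886 and then 1433, 1275 and 1446 (−0.60, SE 0.20, adjusted p = 0.0218, and up to 0.166 without E14.5 replicate 3 or E15.5 replicate 2).

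The count at E15.5 depended on the E14.5 arrays. Leaving out the lens-rich arrays leaves E14.5 with 1 array, whose spread is then taken from the other ages, and 2 members were called, Ndufa4l2 (3.86, adjusted p = 3e-06) and Ndufaf5 (−0.70, adjusted p = 0.0103). Without E14.5 replicate 3 alone, 9 were called, 1 higher and 8 lower. After quantile normalization 36 were called, 1 higher and 35 lower, among them all 16 of the lower ones called from the deposited values. The corneal, blood and lens markers moved with this comparison, with lens sums of 7718 to 109700 at E14.5 and 2793 to 3031 at E15.5, and their part was not tested.

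Of 16 ATP synthase genes 5 were lower at E15.5 and 0 higher, the largest fall being that of Atp5k (−0.53, SE 0.12, adjusted p = 0.00141). Of 24 genes for cytochrome c and the assembly of complexes III and IV, 3 were lower, among them Cycs, cytochrome c itself (−0.72, SE 0.18, adjusted p = 0.00354), and 1 was higher, Higd1a, a hypoxia-induced regulator of complex IV (1.25, SE 0.35, adjusted p = 0.00778). Of 10 hypoxia response genes 4 rose and 0 fell. Among them Egln3, an oxygen-sensing prolyl hydroxylase, read 166, 124 and 104 at E14.5 and 939, 1976 and 1935 at E15.5 (3.41, SE 0.20, adjusted p = 5.92e-12). Vegfa, a vessel growth factor, was higher too (0.89, SE 0.22, adjusted p = 0.00231). Both separated all E15.5 from all E14.5 arrays, as Ndufa4l2 did, while later Egln3 stood at 5452, 5508 and 5500.0 at P28, where Ndufa4l2 read 141, 166 and 139. Of 8 regulators of mitochondrial genes 2 rose, Ppargc1a, a coactivator of mitochondrial biogenesis (1.17, SE 0.29, adjusted p = 0.00271), and its relative Pprc1 (0.53, SE 0.17, adjusted p = 0.0198), and 1 fell, Gabpb1, a partner of GABPA (−0.51, SE 0.17, adjusted p = 0.0195).

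From E15.5 to E17.5 Cox8b was the 1 member called of 75, against 0.923% of all genes (0.546% higher, 0.377% lower, and 0.569% with at least 1 log2 unit), and 10 members were higher and 1 lower at an unadjusted p under 0.05 in limma. No member was called there without E15.5 replicate 2 or 3 or E17.5 replicate 1 or 3, each left out singly, and 3 were called without E15.5 replicate 1 or E17.5 replicate 2. Without the pigment-rich arrays 2 were called, both higher. From E17.5 to P3, a comparison chosen after the levels were seen and sharing the E17.5 arrays, 14 of 75 members were lower and 0 higher, against 7.91% of all genes lower, 5.1% higher and 13% called in all. At an unadjusted p under 0.05, 21 members were lower and 0 higher, and 2 members were called with at least 1 log2 unit, against 1.89% of all genes. The lower ones were 4 of 36 complex I genes, 3 of 4 of complex II, 0 of 8 of complex III, 5 of 16 of complex IV and 2 of 11 assembly factors.

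Of complex II, 3 of 4 genes were lower at P3. Sdha, the flavoprotein that binds succinate, read 1667, 1475 and 1684 at E17.5 and 989.9, 1077 and 1079.8 at P3 (−0.61, SE 0.11, adjusted p = 0.00167). Sdhc, a membrane anchor, read 4196, 5198 and 3947 at E17.5 and 3063, 2788 and 2815 at P3 (−0.61, SE 0.12, adjusted p = 0.00175). Sdhd, the other anchor, read 879, 1044 and 900.3 and then 743, 667 and 660.5 (−0.44, SE 0.11, adjusted p = 0.0163, and up to 0.0619 without E17.5 replicate 2 or P3 replicates 2 and 3). All 3 genes separated the arrays of both ages, while Sdhb, the iron-sulfur protein, was not called (−0.29, SE 0.15, adjusted p = 0.193). Cox4i1, the common form of complex IV subunit 4, read 5959, 6102 and 5998 at E17.5 and 4377, 4181 and 4823 at P3, again without overlap (−0.43, SE 0.11, adjusted p = 0.0115, and up to 0.0592 without P3 replicate 2). Of 15 tricarboxylic acid cycle genes 9 were lower and 0 higher, for example Sucla2, a subunit of succinyl-CoA synthetase (−0.81, SE 0.15, adjusted p = 0.0019), and Ogdh, of the 2-oxoglutarate dehydrogenase complex (−0.68, SE 0.15, adjusted p = 0.00583). Without the 2 muscle-rich E17.5 arrays 7 members were called, 2 higher and 5 lower, and Sdha did not pass (−0.49, adjusted p = 0.0638). After quantile normalization 11 members were called, 4 higher and 7 lower, with a median of −0.055 against −0.17 as deposited, and Sdhc (−0.43, adjusted p = 0.0514) and Sdhd (−0.28, adjusted p = 0.0949) did not pass. Without P3 replicates 1, 2 and 3 in turn, 9, 8 and 9 were called. The pigment cell genes summed to 7784 to 14120 at E17.5 and 4459 to 7505 at P3, and the muscle genes to 5120 to 80660 and 3515 to 5776. Without the 4 pigment-rich arrays, which leaves 1 array at each age, at E17.5 the muscle-rich replicate 1, and takes the spread from the other ages, 2 members were called, Cox8b and Cox6a2, and the median of members was −0.27. Sdha then read −0.74 (adjusted p = 0.092), Sdhc −0.45 (adjusted p = 0.286) and Sdhd −0.24 (adjusted p = 0.61).

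From P3 to P7, a comparison that shares the P3 arrays and was also chosen after the levels were seen, 10 of 75 members rose and 0 fell, against 8.52% of all genes higher, 2.65% lower and 11.2% called in all. At an unadjusted p under 0.05 in limma, 30 members were higher and 0 lower, and 0 were called with at least 1 log2 unit, against 1.98% of all genes. The risers were 7 genes of complex I, 2 of complex II and 1 of complex IV. Ndufa9, a complex I subunit near the quinone site, read 1362, 1449 and 2062 at P3 and 2996, 2875 and 2697 at P7 (0.83, SE 0.17, adjusted p = 0.00393). Ndufa1, an accessory subunit of the membrane arm, read 3019.9, 3119 and 4486 at P3 and 5769, 5470.3 and 5216 at P7 (0.65, SE 0.18, adjusted p = 0.0193, and up to 0.0857 without P3 replicates 1 and 2 or P7 replicates 1 and 2). Ndufb8, also of the membrane arm, read 975, 935 and 1232 and then 1495, 1716 and 1620.3 (0.62, SE 0.13, adjusted p = 0.00485). In all 3 genes replicate 3 of P3 was the highest of its age and still lay below every P7 array. Of the tricarboxylic acid cycle genes 7 of 15 rose and 0 fell, among them Suclg2, of succinyl-CoA synthetase (1.04, SE 0.14, adjusted p = 5.26e-05), and Cs, citrate synthase (0.58, SE 0.12, adjusted p = 0.00354). Quantile normalization left 3 members called and centring each array on its median 6. The markers of several tissues moved with this comparison. From P3 to P7 the pigment cell sums went from 4459 to 7505 to 1064 to 1779, the epithelial sums from 20450 to 21330 to 34250 to 44370 and the endothelial sums from 4322 to 5965 to 7209 to 8212, none of them overlapping, and their part in the members' rise was not tested. Without the pigment-rich arrays P3 keeps 1 array, and 1 member was called, Ndufa9 (1.06, adjusted p = 0.0247), with a median of members of 0.24 against 0.21 with all arrays. The count was 2 without P7 replicate 2, 4 without P7 replicate 1 or P3 replicate 2, and 6 without P3 replicate 1.

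Between E15.5 and P14, ages of 1 array set, 7 of 75 members were called against 18.9% of all genes, 4 higher (7.45%) and 3 lower (11.4%), and 1, Ndufa4l2, with at least 1 log2 unit (5.19%). Uqcrq rose from 1117, 1047 and 1047 to 1642, 1815 and 1572 (0.64, SE 0.14, adjusted p = 0.00237 in limma). Uqcr10, another small subunit of complex III, rose from 1532, 1423 and 1748 to 2081, 2359.6 and 1952 (0.44, SE 0.13, adjusted p = 0.0167, and up to 0.0869 without E15.5 replicate 2 or P14 replicate 2). Neither overlapped between the ages. Cox7b of complex IV was higher (0.45, SE 0.16, adjusted p = 0.0434), a call lost when any 1 of the 6 arrays was left out. Sdhc was lower (−0.43, SE 0.12, adjusted p = 0.0107, and up to 0.0632 without E15.5 replicate 3 or P14 replicate 3). Ndufa12, a complex I accessory subunit, was lower (−0.65, SE 0.22, adjusted p = 0.0364, and up to 0.335 without E15.5 replicates 1 and 2 or P14 replicate 2), and its P14 values were lowest on replicate 2 (1139.9, 541 and 1297 against 1594, 1589.8 and 1241 at E15.5), which is the lens-rich array. After quantile normalization Ndufa12 did not pass (adjusted p = 0.0664). Without E15.5 replicate 2 or P14 replicate 2 the count was 4, and after quantile normalization 12, 10 higher and 2 lower. The epithelial markers summed to 21690 to 32970 at E15.5 and 39880 to 50270 at P14, and their part was not tested.

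Between P14 and P28, where the 2 array sets meet, 18 of 75 members were called against 31.9% of all genes, 16 higher (24% of all genes) and 2 lower (7.87%), and 1 with at least 1 log2 unit (7.65%). The median difference was 0.22 for members and 0.11 for all genes. Higher were 9 of 36 complex I genes, 2 of 4 of complex II, 3 of 8 of complex III, 0 of 16 of complex IV and 2 of 11 assembly factors. After quantile normalization the split turned, to 2 higher and 14 lower with a median of −0.047, and centring each array on its median gave 7 higher and 2 lower. The median of all genes moved from 0.11 to −0.0029 with quantile normalization. The direction of the group as a whole therefore depended on the scaling.

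The 2 genes that were called higher both as deposited and after quantile normalization separated the ages. Ndufa12 read 1139.9, 541 and 1297 at P14 and 2405, 1993 and 1949 at P28 (1.17, SE 0.22, adjusted p = 0.000266 in limma), and the difference was 0.78 (adjusted p = 0.00183) without the lens-rich arrays. Sdhb read 1243, 1049 and 988 at P14 and 1940.2, 2138 and 1661 at P28 (0.80, SE 0.15, adjusted p = 0.000259). In both, every P28 array exceeded every P14 array.

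Ndufb3, of the complex I membrane arm, read 1988, 1558 and 1639 at P14 and 2584, 3078 and 2406 at P28 (0.63, SE 0.16, adjusted p = 0.00436, and 0.122 after quantile normalization). Ndufs4, an accessory subunit whose loss causes a Leigh-like disease in mice, read 2986, 2369.8 and 2482 at P14 and 4237, 4348 and 3571 at P28 (0.63, SE 0.16, adjusted p = 0.00459, and 0.0749 after quantile normalization). Sdha read 1632, 1314 and 1290.3 at P14 and 1918, 2233 and 2214 at P28 (0.59, SE 0.11, adjusted p = 0.000429, and 0.0964 after quantile normalization). These 3 genes separated the ages as well, but did not pass the test after quantile normalization. After centring each array on its median they still passed in limma. The differences were then 0.53 for Ndufb3 (adjusted p = 0.0161), 0.53 for Ndufs4 (adjusted p = 0.014) and 0.48 for Sdha (adjusted p = 0.0027). The same held for Ndufv1, which carries the NADH site of complex I, at 1382, 1261 and 1164 and then 1851, 1871 and 1875 (0.55, SE 0.11, adjusted p = 0.000768, 0.349 after quantile normalization and 0.00419 after centring).

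The 2 members that fell at P28 were called lower as deposited, after quantile normalization and after centring. Besides Cox6b2 (−0.86, SE 0.19, adjusted p = 0.00112) this was Sdhaf1, an assembly factor that helps insert iron-sulfur clusters into Sdhb, which read 1274, 962 and 963 at P14 and 771, 596 and 409 at P28 without overlap (−0.86, SE 0.20, adjusted p = 0.00165). Of the tricarboxylic acid cycle genes 7 of 15 rose and 0 fell, for example Ogdh (0.76, SE 0.15, adjusted p = 0.000547) and Cs (0.61, SE 0.12, adjusted p = 0.00043), and of the ATP synthase genes 4 of 16 rose. Of the regulators Gabpa (0.53, SE 0.15, adjusted p = 0.00793) and Yy1 (0.38, SE 0.13, adjusted p = 0.0303) rose and Ppargc1a fell (−1.01, SE 0.29, adjusted p = 0.00911). Of 9 genes for mitochondrial DNA upkeep and transcription 3 rose, among them Tfb1m (0.77, SE 0.20, adjusted p = 0.00499). In every comparison these genes outside the member list are given on the deposited scale only. The epithelial markers summed to 39880 to 50270 at P14 and 60960 to 65710 at P28 while the stromal sums were lower as given above, and the part of either in these differences was not tested. The member count was 28 without P14 replicate 1, 10 without P14 replicate 2, 10 without P14 replicate 3, 9 without P28 replicate 1 and 11 without P28 replicate 2.

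**Figure D4:**
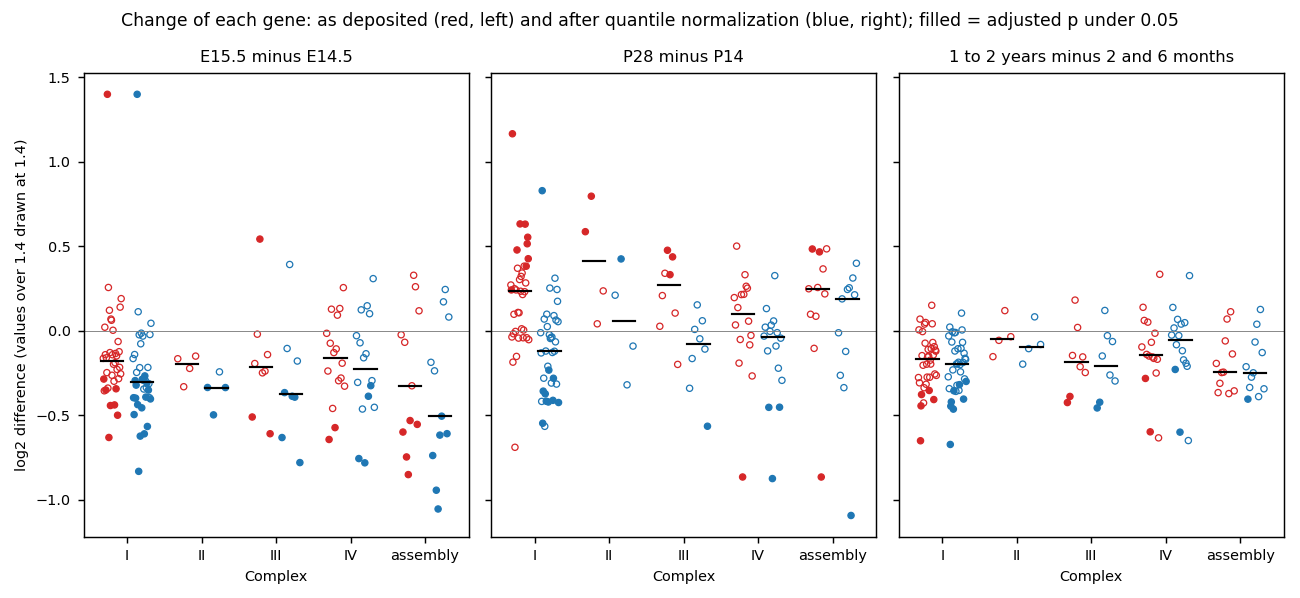
Log2 difference of each of the 75 members by complex in 3 comparisons, as deposited (red) and after quantile normalization (blue); filled points passed adjusted p under 0.05, bars are medians and Ndufa4l2 at E15.5 is drawn at the upper limit of the axis. In the P28 panel 16 of 18 filled points lie above 0 as deposited and 14 of 16 below 0 after quantile normalization, whereas in the ageing panel all filled points lie below 0 under both.

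Over the whole of development, 2 months minus E14.5, 24 of 75 members were called against 45.3% of all genes, 12 higher (25.1%) and 12 lower (20.2%), 2 of them with at least 1 log2 unit (16.3%). This comparison spans both array sets and shares the E14.5 arrays with that of E15.5. Ndufaf5 read 593, 546 and 450.4 at 2 months, below all its E14.5 values (−0.87, SE 0.13, adjusted p = 1.03e-05 in limma). Sdhc read 4523, 3978 and 3838 at E14.5 and 2578, 2283 and 2490.0 at 2 months, also without overlap (−0.74, SE 0.12, adjusted p = 1.05e-05). Ndufab1, the mitochondrial acyl carrier protein within complex I, was lower as well (−0.68, SE 0.13, adjusted p = 0.00016). Uqcrb, a quinone-binding subunit of complex III, rose from 2126, 2174 and 2965 to 4315, 2972 and 3787 (0.61, SE 0.17, adjusted p = 0.00571). Cox7a2l, which links complexes III and IV into supercomplexes, rose from 3784, 3757 and 4469 to 6022, 5702 and 6115 (0.57, SE 0.11, adjusted p = 0.000167). Neither of these overlapped between the ages. After quantile normalization 28 members were called, 4 higher and 24 lower, and without the lens-rich arrays 11, 4 higher and 7 lower. Of the regulators Gabpb1 (−1.09, SE 0.17, adjusted p = 7.52e-06) and Nrf1 (−0.47, SE 0.14, adjusted p = 0.00711) were lower. Of the hypoxia response genes 6 of 10 were higher and 0 lower, led by Egln3 (4.86, SE 0.20, adjusted p = 2.27e-15) and Epas1, a hypoxia-inducible factor subunit (3.87, SE 0.25, adjusted p = 5.01e-12). From E14.5 to 2 months the epithelial marker sums went from 3401 to 6145 to 52840 to 56230 and the stromal sums from 6523 to 11340 to 19940 to 25960. The sums of the blood genes, mostly embryonic globins, went from 22820 to 33180 to 462 to 538, which does not measure blood at 2 months. On the single layer arrays Egln3 read 3562 in epithelium of P28 and 648 in stroma of P7, and Epas1 3756 and 1105. In whole cornea Egln3 read 2107 to 3089 at P7 and 5452 to 5508 at P28, and Epas1 729 to 894 and 2657 to 4220. Layer and age cannot be told apart in the layer values. The part of these tissues in the differences of members and of hypoxia genes was not tested.

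With ageing, taken as the mean of 1 year, 18 months and 2 years minus the mean of 2 and 6 months, 9 of 75 members were lower and 0 higher, against 1.83% of all genes lower, 2.29% higher and 4.12% called in all. At an unadjusted p under 0.05, limma gave 24 members lower and 1 higher. The median difference was −0.15 for members and 0.014 for all genes, 60 of 75 members had a negative sign, and 0 members were called with at least 1 log2 unit, against 0.677% of all genes. The lower members were 5 of 36 complex I genes, 2 of 8 of complex III and 2 of 16 of complex IV, with 0 of complex II and 0 assembly factors. After quantile normalization 13 were lower and 0 higher, and after centring 10 and 0.

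Ndufa13, a complex I subunit also known as GRIM-19, had the largest fall of the members. It read 1932, 1796 and 2186 at 2 months and 1962 and 1951 at 6 months, then 1354 and 1434 at 1 year, 1211 and 1133 at 18 months and 1020.5 and 1360.5 at 2 years. All 6 arrays of the older ages lay below all 5 of the younger ones (−0.65, SE 0.090, adjusted p = 0.000216 in limma). At P28 it stood at 1330.4, 1463 and 1238, within the range of 1 year to 2 years apart from its highest array. Ndufa2, an accessory subunit of complex I, read 4372, 3817 and 4034 at 2 months and 4078 and 3766 at 6 months, then 3220.3 and 3303, 2702 and 2594 and 2604 and 3269.9 at the 3 older ages. Its arrays did not overlap either (−0.44, SE 0.074, adjusted p = 0.00153).

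The arrays of the next members lay closer together. Uqcr10 read 2680.4, 2096, 2346, 2362 and 2075 on the younger arrays and 1782, 1939.6, 1616, 1617, 1453 and 1843 on the older ones (−0.42, SE 0.10, adjusted p = 0.0141, and up to 0.0886 without 6 months replicate 1 or 2 years replicate 1). Ndufs6, a complex I subunit that carries zinc, read 4654, 3504, 4102, 5142 and 4076 and then 3533, 3659, 3411, 3125, 2463 and 3469.6 (−0.41, SE 0.089, adjusted p = 0.012, and up to 0.109 without 6 months replicate 1). Uqcr10 did not overlap, and Ndufs6 did, through replicate 2 of 2 months. Uqcr11, a small subunit of complex III, read 1743, 1117, 1616, 1713 and 1615 and then 1119.9, 1406, 1253, 1106, 1049.5 and 1237 (−0.39, SE 0.11, adjusted p = 0.0442, and up to 0.163 without 2 months replicates 1 and 3, 6 months replicates 1 and 2, 1 year replicate 1, 18 months replicates 1 and 2 or 2 years replicate 1), with replicate 2 of 2 months again among the old values. Cox6b2 was lower too (−0.60, SE 0.14, adjusted p = 0.0171, and up to 0.111 without 6 months replicate 1 or 18 months replicate 2). The remaining calls were Ndufa3 (−0.38, adjusted p = 0.0345), Ndufb7 (−0.35, adjusted p = 0.0438) and Cox5b (−0.28, adjusted p = 0.0323), each lost when any 1 of at least 7 arrays was left out.

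The ageing count rested in part on 6 months replicate 1, on which the 10 retina genes summed to 30940 against at most 10060 on any other whole-cornea array: without it 2 members were called, Ndufa13 (−0.65, adjusted p = 0.00263) and Ndufa2 (−0.41, adjusted p = 0.0153). It was 5 without 2 months replicate 1 or 18 months replicate 1, and 4 without 18 months replicate 2 or 2 years replicate 1. Leaving out all arrays rich in lens, muscle or retina genes left replicates 2 and 3 of 2 months as the younger side, and 5 members were called, 1 higher and 4 lower, with a median of −0.0055 for members and 0.025 for all genes. These 2 arrays are those with the identifiers 1B and 1A. Whether they share an animal is not stated, so the younger side may not hold separate animals. Ndufa13 (−0.66, adjusted p = 0.0038), Ndufa2 (−0.42, adjusted p = 0.0164) and Cox6b2 (−0.71, adjusted p = 0.0174) were still lower there, and Ndufs6 (−0.22, adjusted p = 0.221) and Uqcr11 (−0.17, adjusted p = 0.455) did not pass. The stromal markers summed to 8601 to 25960 on the younger arrays and 5561 to 21160 on the older ones, and the endothelial markers to 1262 to 7068 and 607 to 4541, and their part in the ageing differences was not tested. Of the ATP synthase genes 2 of 16 were lower, Atp5e (−0.36, SE 0.078, adjusted p = 0.0113) and Atp5j2 (−0.33, SE 0.082, adjusted p = 0.0259). Of the tricarboxylic acid cycle genes 1 of 15, Ogdh, was higher (0.46, SE 0.11, adjusted p = 0.0222 in limma). Of the hypoxia response genes 1 of 10 was higher, Pdk1, which restrains entry of pyruvate into the tricarboxylic acid cycle (0.38, SE 0.088, adjusted p = 0.0167).

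The 2 layers, epithelium of P28 and stroma of P7, had 1 array each and different ages, so no test was made and layer and age cannot be told apart. Krt12 read 15153 in epithelium and 2185 in stroma, and Kera, the stromal proteoglycan keratocan, 158 and 3433. The stroma array also carried lens genes (sum 88400, against 5438 in epithelium) and muscle genes (19770 against 5248). Of 73 members above the array median on at least 1 of the 2 arrays, 25 were higher in epithelium, and the median difference of epithelium minus stroma was −0.089, against 0.0078 for all 10724 genes counted. A 4-fold difference was found for 2 of 73 members, against 1.69% of all genes. A 2-fold difference was found for 3 (7.99% of all genes), all higher in stroma (4.07%), and for none higher in epithelium (3.92%). These were Cox8b (128 in epithelium and 822 in stroma, a log2 difference of −2.54), Cox6b2 (175 and 758, −2.02) and Ndufs5, a complex I accessory subunit (196 and 683, −1.72). Each lay below the array median in epithelium, and of the members above the median on both arrays 0 differed 2-fold. The largest difference toward epithelium among members was that of Ndufa4 (5154 and 3239, 0.67). By complex the median differences were −0.084 for I, 0.015 for II, −0.16 for III, −0.13 for IV and 0.021 for assembly factors.

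**Figure D5:**
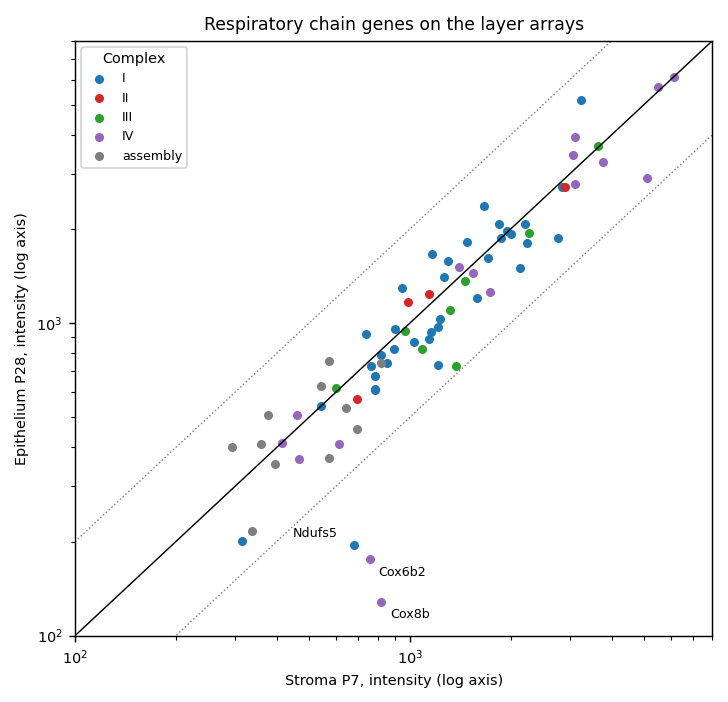
Intensity of each member in epithelium of P28 against stroma of P7, 1 array each, both on log axes and coloured by complex; the solid line marks equal values and the dotted lines a 2-fold difference. Of the 73 members counted, all but Cox8b, Cox6b2 and Ndufs5 lie within the dotted lines.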

How the data were processed

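Total RNA of the mouse cornea was hybridised to Affymetrix gene arrays. The authors deposited 1 linear intensity per probe set and array. The submitters' processing notes name PLIER and Affymetrix Expression Console 1.1, and the normalization settings are not given in the sources used here. The deposited table held 35557 probe sets on 34 arrays with 2 missing values, and 21789 probe sets had 1 gene symbol in the platform annotation. Array medians of the intensity ran from 188.2 to 240.6 in whole cornea and were 318 and 321.5 for the layers, so layer and whole-cornea levels were not compared.

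Intensities were used as deposited, with log2 taken after adding 16. A probe set was kept if it exceeded the array median on 2 or more of the 32 whole-cornea arrays, and the one of highest mean stood for its gene. Linear models with 1 mean per age were fitted with limma 3.58.1 in R 4.3.3 (20 residual and 4.1 prior degrees of freedom), with two-sided tests and Benjamini-Hochberg adjustment over all 12998 genes of a comparison; SE is that of the fit. The procedure was tested on simulated data. Any member could be named; arrays are given for at most 6 called members with the largest rise and 6 with the largest fall of a comparison, and the tissue isoforms and their partners were always described. The members, gene lists and comparisons were chosen with earlier results of these data known. Arrays with the same replicate number in different ages were by the median no more alike in their deviations than other pairs (correlations of −0.012 and 0.007). Of the 160 pairs with the same number, 28 correlated above 0.1. Alternatives were other filters, offsets, normalizations, probe set rules and moderation, a fold threshold, a replicate block, averaging of the 2 months arrays whose identifiers are 1A and 1B, the compared ages alone, and leaving out single arrays or arrays rich in other tissues. Microarray depth has no count, so no counting interval applies.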

Additional observations from a re-analysis of the deposited data

How the results depend on the processing

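Counts of called members kept their direction and stayed within 1.5 times under other filters on low values, an offset of 1, averaging of probe sets, trend and robust moderation, the 1A and 1B arrays averaged and the replicate block. The block gave 55 over the 12 ages and 17, 1, 7, 18, 24, 7, 13 and 8 for E15.5, E17.5, P14, P28, 2 months, ageing, P3 and P7. By the median, arrays of the same number were no more alike than other pairs. Quantile normalization gave 36 at E15.5, 4 at E17.5, 12 at P14 and 3 at P7, narrowed the split at P3 from 0 higher and 14 lower to 4 higher and 7 lower, and at P28 gave 16 with the direction turned, including Ndufa10 at −0.13 (adjusted p = 0.349) and Uqcrc2 at −0.047 (adjusted p = 0.744); the cause was not tested. Centring on the array median gave 30, 2, 9 and 6 at E15.5, E17.5, P28 and P7, and an offset of 64 gave 3 at E17.5. A further condition of 1 log2 unit left 15 over the 12 ages, 1 each at E15.5, P14 and P28, 2 each at 2 months and P3, and 0 at P7 and with ageing. The compared ages alone, with fewer arrays for the spread, gave 9, 0, 3, 13, 4, 2 and 4 at E15.5, E17.5, P14, 2 months, ageing, P3 and P7 (at E17.5, 10 higher and 1 lower at an unadjusted p under 0.05 in the fit of all ages), and the F-test 21 to P14 and 11 from P28. Without lens-rich arrays 2, 11, 11 and 4 were called at E15.5, P28, 2 months and ageing; without muscle-rich arrays 4 at E17.5 and 7 at P3; without the retina-rich array 2 with ageing. Without all of them, chosen after seeing the data, 3, 5, 11, 12, 5 and 6 were called at E15.5, E17.5, P28, 2 months, ageing and P3; without pigment-rich arrays, also chosen after seeing the data, 2, 2 and 1 were called at E17.5, P3 and P7. Leaving out each array in turn gave 52 to 65 over the 12 ages, 9 to 18 at E15.5, 0 to 3 at E17.5, 4 to 6 at P14, 9 to 28 at P28, 16 to 30 at 2 months, 2 to 12 with ageing, 8 to 16 at P3 and 2 to 10 at P7. Restricting the layers to members above the median on both arrays left 0 with a 2-fold difference. With 2 or 3 arrays per age, small differences could not be resolved.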
